A study of Sus scrofa with 6 samples.

Results

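The expression of 9 genes of lipolysis, the release of fatty acids from stored triglyceride, was described in the longissimus dorsi (LD) muscle of Laiwu pigs, a fatty Chinese breed. The genes were 5 enzymes or cofactors of the pathway (PNPLA2, LIPE, MGLL, PNPLA3 and ABHD5), its inhibitor G0S2, the adrenergic receptors ADRB1 and ADRB3, and the phosphodiesterase PDE3B. They were chosen by name and role from the 31908 Ensembl genes of the deposited table, by a rule that uses no measured value. Earlier results of these data were, however, known when the choice was made. The symbols of 8 genes were found in the table, and ADRB3 was found by its Ensembl gene ID. The animals were 3 pigs with high intramuscular fat content (S-H: LW63, LW70 and LW119) and 3 pigs with low intramuscular fat content (S-L: LW82, LW88 and LW90). All 6 were untreated castrated males, each pig gave 1 library of total RNA depleted of ribosomal RNA, and ages were not given in the sources used here. The pigs had been selected for the extremes of fat content within 1 population, so each group is a set of 3 separate animals and not a line.

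Triglyceride is broken down in sequence at the surface of the lipid droplet. PNPLA2 (adipose triglyceride lipase) removes the first fatty acid, LIPE (hormone-sensitive lipase) acts on the diglyceride, and MGLL (monoglyceride lipase) releases glycerol. ABHD5 activates PNPLA2 and G0S2 inhibits it. In fat cells, beta-adrenergic receptors raise cAMP, which activates protein kinase A (PKA) and with it LIPE and the droplet coat protein PLIN1, and PDE3B breaks cAMP down under the control of insulin. PNPLA2, ABHD5 and LIPE are also active in muscle fibres, which hold small lipid droplets of their own, so whole muscle mixes both sources, and in such bulk samples fewer cells of a type and less RNA per cell cannot be told apart.

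Values are FPKM (fragments scaled to transcript length and library size), summed over the transcripts of a gene. Over all transcripts they summed to 638536 in LW119 and to between 776457 and 846661 in the other 5 pigs. The structural RNAs of RNase MRP, RNase P and the signal recognition particle made up 46.6% to 64.7% of these sums, lowest in LW119, and the median log2 fold change (S-H against S-L) of all 12740 tested protein-coding genes was 0.21 on log2(FPKM + 0.1). The tissue label was checked against ACTA1 (skeletal muscle actin), a defining transcript of myofibres, which lay between 447.5 and 1731 FPKM. Adipocyte markers were also detected in every pig, with summed levels of 534.6 to 1473 FPKM in S-H and 375.5 to 465.1 FPKM in S-L. As higher in S-H, 6 of the 8 tested markers passed the unadjusted thresholds given below, beside 1.17% of all tested genes. The adjusted p of these 6 lay between 0.464 and 0.542 in limma.

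All 3 steps of the lipase cascade were expressed in each of the 6 pigs, and 0 of the 8 tested members passed the thresholds used in the study (p below 0.01 before adjustment, and a log2 fold change of 1 or more in either direction), beside 1.36% of all tested genes. ADRB3 was below the minimum mean of 0.1 FPKM and was not tested, and the means of the 8 tested members were above this minimum in both groups. PNPLA3, ADRB1 and LIPE had an unadjusted p below 0.05 in limma, as did 8.16% of all tested genes, and 0 genes (0.0%) had an adjusted p below 0.05. Without LW119, LIPE, PNPLA3 and ADRB1 passed, with log2 fold changes of 1.06, 1.70 and 1.92, and without LW88 PNPLA3 passed with 1.86. The count over all tested genes was 173 with all pigs, 225 without LW119, 217 without LW88 and 125 without LW63. Without LW63, the log2 fold changes of LIPE, PNPLA3, ADRB1 and PDE3B were 0.47, 1.08, 0.84 and 0.44, and none of these genes passed. The log2 fold change lay above 0 for all 8 members and for 74.1% of all tested genes, and the median of the members was 0.66. Levels did not overlap between the groups for LIPE, MGLL, PNPLA3 and PDE3B, with the S-H pigs higher, which held for 13.1% of all tested genes. LW63 had the highest level of 6 of the 8 tested members and LW119 had the highest level of ABHD5 and G0S2. The share of all tested genes highest in each pig was not counted.

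**Figure D1:**
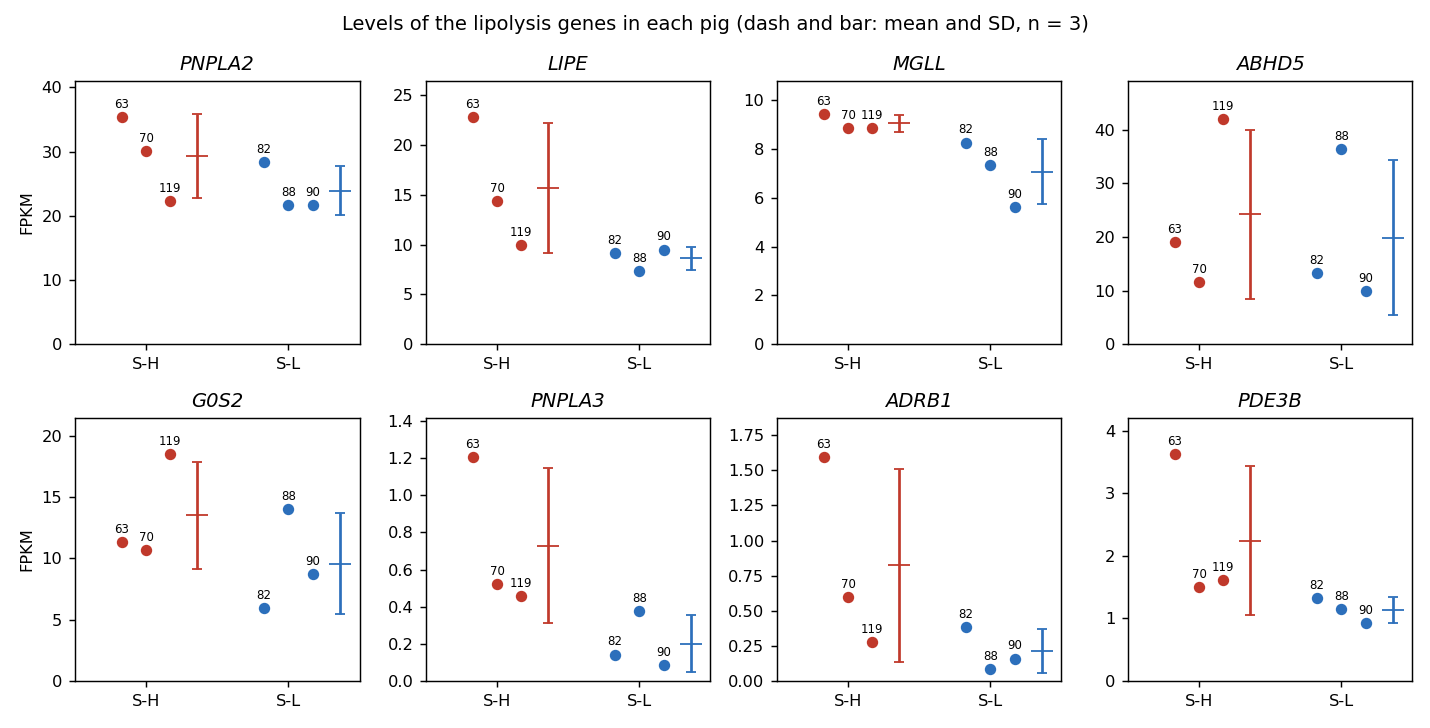
Level of the 8 tested genes in each pig (points with the pig's number, FPKM, each panel with its own vertical axis from 0; S-H red, S-L blue), with the mean and SD of each group beside them (dash and bar, n = 3). LW63 is the highest point in 6 panels, and LW119 and LW88 are the 2 highest for ABHD5 and G0S2.

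Over the 6 pigs, mean levels per length ran in the order PNPLA2 (26.6 FPKM), ABHD5 (22.1), LIPE (12.2), G0S2 (11.5), MGLL (8.06), PDE3B (1.69), ADRB1 (0.517) and PNPLA3 (0.464). PNPLA2 was above 90.4% of the tested genes in mean level, and PNPLA3 was above 12.6%. Neighbours among the first 4 changed places between pigs. PNPLA2 exceeded ABHD5 in 4 of 6 pigs, ABHD5 exceeded LIPE in 4 of 6, and LIPE exceeded G0S2 in 4 of 6. MGLL was above PDE3B, PDE3B above ADRB1, and PNPLA3 above ADRB3, in all 6 pigs, while G0S2 exceeded MGLL in 5 and ADRB1 exceeded PNPLA3 in 4.

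PNPLA2 (chr2:513076-518187, build Sus scrofa 11.1), which starts the cascade, was the most abundant member. Its level was 35.4, 30.1 and 22.3 FPKM in LW63, LW70 and LW119, and 28.3, 21.7 and 21.7 FPKM in LW82, LW88 and LW90. The groups overlapped, since LW119 was below LW82. The mean was 29.3 ± 6.56 FPKM in S-H against 23.9 ± 3.82 FPKM in S-L (SD, n = 3 each), and the log2 fold change was 0.28 with a 95% confidence interval from -0.29 to 0.85 (limma, adjusted p = 0.752). Nearly all of this came from PNPLA2-201, which held at least 99.5% of the gene in every pig. With single pigs left out, the log2 fold change of PNPLA2 lay between 0.13 (without LW63) and 0.46 (without LW119).

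The activator and the inhibitor of PNPLA2 were both highest in 1 pig of each group. ABHD5 (chr13:27006201-27056744) measured 19.0, 11.7 and 42.0 FPKM in the S-H pigs and 13.4, 36.5 and 9.87 FPKM in the S-L pigs. LW119 and LW88 stood above the other 4 pigs. The log2 fold change was 0.32 with a confidence interval from -0.88 to 1.52 (limma, adjusted p = 0.875). Without LW119 it was -0.18 and without LW90 it was -0.07, so its direction rested on single pigs of both groups. G0S2 (chr9:133287325-133287742) measured 11.3, 10.7 and 18.5 FPKM in S-H and 5.95, 14.0 and 8.73 FPKM in S-L. The table's model of G0S2 spans 418 bases and that of RefSeq 1002, so its level per length depends on the model. LW119 and LW88 were again the 2 highest pigs, and the groups overlapped. The means were 13.5 ± 4.35 and 9.58 ± 4.12 FPKM (SD, n = 3 each), with a log2 fold change of 0.53 and a confidence interval from -0.24 to 1.31 (limma, adjusted p = 0.669). It was 0.24 without LW82, 0.29 without LW119 and 0.85 without LW88.

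ABHD5 was measured as a pair of transcripts with different annotated ends. ABHD5-202 (chr13:27006201-27053461) carried the high values, at 16.9, 6.69 and 37.1 FPKM in S-H and 11.9, 32.7 and 8.76 FPKM in S-L. ABHD5-201 (chr13:27034273-27056744) was lower, at 2.09, 5.002 and 4.95 FPKM in S-H and 1.51, 3.84 and 1.11 FPKM in S-L. It made up 10.5% to 11.8% of the gene in 5 pigs and 42.8% in LW70. The share did not differ between the groups beyond its spread (exact two-sided permutation test, p = 0.30), and neither transcript passed, where 1.25% of the 40336 tested transcripts did. The gene ANO10 overlaps the ABHD5 locus by 339 bases, and ANO10-201 lay between 2.86 and 6.01 FPKM, below ABHD5 in every pig.

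LIPE (chr6:49540907-49560126) had the largest log2 fold change among the 3 lipases of the cascade when the transcripts of each gene were summed. Its level was 22.8, 14.4 and 10.0004 FPKM in LW63, LW70 and LW119, and 9.12, 7.34 and 9.51 FPKM in LW82, LW88 and LW90. The groups did not overlap, but LW119 and LW90 lay close together. The mean was 15.7 ± 6.53 FPKM in S-H against 8.66 ± 1.16 FPKM in S-L (SD, n = 3 each). The log2 fold change of 0.78 had a confidence interval from 0.08 to 1.48 (limma, p = 0.0322, adjusted p = 0.605, and p = 0.10 in an exact two-sided permutation test, the smallest that 3 pigs against 3 allow). LIPE thus missed both thresholds.

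LIPE was measured mainly as 2 transcripts. LIPE-203 (chr6:49549303-49560125) measured 5.72, 12.3 and 8.22 FPKM in S-H and 8.91, 6.96 and 6.81 FPKM in S-L. LIPE-202 (chr6:49543017-49560126), whose annotated span reaches further, measured 17.1, 2.02 and 1.78 FPKM in S-H and 0.213, 0.327 and 2.69 FPKM in S-L. LW63 was far above all other pigs, and LW90 exceeded the other 2 S-H pigs. LIPE-202 was 75.0% of the gene in LW63 and between 2.34% and 28.3% in the other 5 pigs. Its log2 fold change was 2.51 (SE 1.14, limma, adjusted p = 0.848) and that of LIPE-203 was 0.15. Transcripts assembled by the authors under the neighbouring gene DMAC2 span the LIPE locus, share bases with it, and each reached at most 1.25 FPKM. They measured 1.05, 0.437 and 0.930 FPKM in LW119 and 0.0441, 0 and 0 FPKM in LW90. Both the split between the LIPE transcripts and their sum are therefore uncertain.

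**Figure D2:**
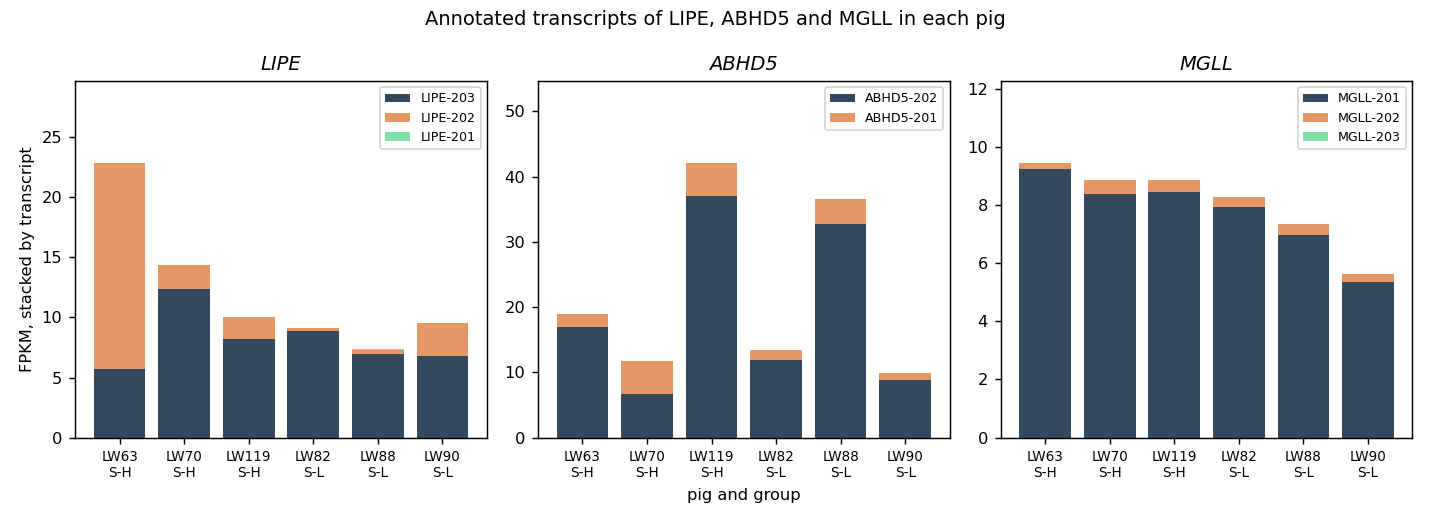
Level of each transcript of LIPE, ABHD5 and MGLL in each pig (stacked bars, FPKM from 0; 3 S-H and then 3 S-L pigs on the horizontal axis). LIPE-202 makes up most of the LIPE bar only in LW63, ABHD5-201 is 42.8% of the ABHD5 bar in LW70 and at most 11.8% in the other pigs, and MGLL-201 makes up nearly the whole MGLL bar.

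MGLL (chr13:72479337-72568962), the last step, varied little in S-H, at 9.44, 8.85 and 8.86 FPKM, and measured 8.27, 7.35 and 5.62 FPKM in S-L. The groups did not overlap, but LW70 and LW119 lay close to LW82. The means were 9.05 ± 0.336 and 7.08 ± 1.35 FPKM (SD, n = 3 each), and the log2 fold change of 0.37 had a confidence interval from -0.17 to 0.91 (limma, adjusted p = 0.671). It was 0.21 without LW90. MGLL-201 held 94.6% to 97.9% of the gene, MGLL-202 lay between 0.196 and 0.475 FPKM, and MGLL-203 was listed at 0 in all pigs.

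PNPLA3 (chr5:5075622-5092515), a lipid droplet protein related to PNPLA2, was low in muscle. It measured 1.21, 0.521 and 0.455 FPKM in S-H and 0.142, 0.375 and 0.0845 FPKM in S-L. No S-L pig reached the lowest S-H pig. The log2 fold change was 1.47 (SE 0.48) with a confidence interval from 0.39 to 2.55 (limma, p = 0.0127, adjusted p = 0.580, exact two-sided permutation p = 0.10), just above the p threshold. The fold change is on the log2(FPKM + 0.1) scale, which understates changes of genes this low. On TPM, the same values scaled to an equal sum in each pig, PNPLA3 passed with a log2 fold change of 1.66. The count of all tested genes that passed was also higher on TPM, at 260 against 173 on FPKM. The log2 fold change of PNPLA3 was 1.32 with median-ratio size factors and 1.19 after quantile normalization. PNPLA3 did not pass under either of these scalings.

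Of the catecholamine receptors, ADRB1 (chr14:124400189-124401739) was detected in all pigs and ADRB3 (chr15:48475144-48479573) in 1. ADRB1 measured 1.597, 0.595 and 0.278 FPKM in S-H and 0.387, 0.0879 and 0.160 FPKM in S-L. LW119 was below LW82, so the groups overlapped, and LW63 was more than 2 times the next pig. The log2 fold change was 1.41 (SE 0.58) with a confidence interval from 0.13 to 2.70 (limma, p = 0.0345, adjusted p = 0.607, exact two-sided permutation p = 0.20). ADRB3 was listed at 0 in 5 pigs and at 0.0203 FPKM in LW90, an S-L pig, so no difference was detectable. The table's model of ADRB3 spans 4430 bases and that of RefSeq 9568, and they overlap only in part. The level of ADRB3 therefore depends on the model. The depth behind these values is unknown, because read counts were not used here.

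PDE3B (chr2:44416175-44614028), the enzyme through which insulin lowers cAMP, measured 3.62, 1.51 and 1.61 FPKM in S-H and 1.33, 1.15 and 0.919 FPKM in S-L. The groups did not overlap, and LW63 stood apart from the other 5 pigs. The means were 2.24 ± 1.19 and 1.13 ± 0.206 FPKM (SD, n = 3 each), and the log2 fold change of 0.83 missed both thresholds (SE 0.37, limma, p = 0.0504, adjusted p = 0.608, exact two-sided permutation p = 0.10). A transcript assembled by the authors overlaps PDE3B and lay between 0.0702 and 0.575 FPKM.

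Because the libraries differed in their sums, the differences were also set beside other scalings. The log2 fold change of LIPE was 0.92 on TPM, 0.56 with median-ratio size factors and 0.61 after quantile normalization. For PNPLA2 it was 0.41, 0.06 and 0.12. All 8 members stayed above 0 under these 3 scalings, but the all-gene median moved from 0.21 to 0.35, 0.01 and -0.01. The genes that passed were 149 higher and 24 lower in S-H on FPKM, 246 and 14 on TPM, 82 and 55 with size factors, and 68 and 61 after quantile normalization.

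**Figure D3:**
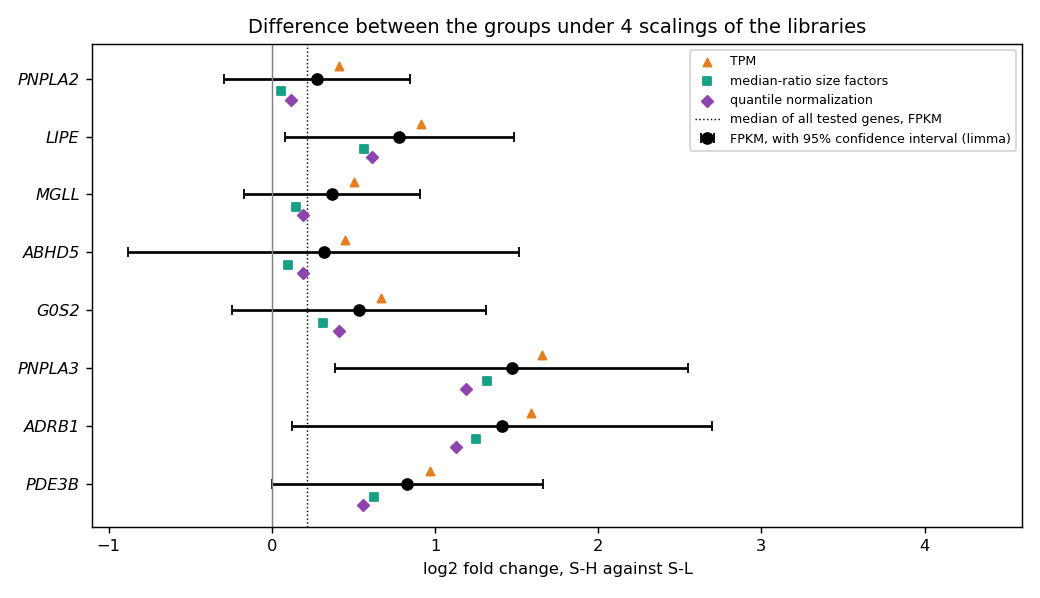
Log2 fold change of the 8 tested genes, S-H against S-L, on FPKM (black points; bars are 95% confidence intervals from limma, n = 3 pigs per group) and under 3 other scalings (coloured marks). The dotted line is the median of all tested genes on FPKM, 0.21, and the interval excludes 0 for LIPE, PNPLA3 and ADRB1.

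Within a pig, the ratio of 1 member to another is the same on FPKM, on TPM and with size factors, which multiply all values of a pig alike, but not after quantile normalization. The ratio of LIPE to PNPLA2 was 0.646, 0.477 and 0.448 in S-H and 0.322, 0.339 and 0.438 in S-L. Of the 7 ratios to PNPLA2 that were compared, it was the 1 without overlap between the groups (p = 0.10 in the exact two-sided permutation test before any adjustment for the 7 comparisons). The ratio of ABHD5 to PNPLA2 was 1.88 in LW119 and 1.68 in LW88, and 0.388 to 0.538 in the other 4 pigs. In LW119 and LW88 the transcript of the activator thus exceeded that of its lipase. The ratio of G0S2 to PNPLA2 was also highest in these pigs, at 0.829 and 0.648, against 0.210 to 0.402 in the others. The ratio of MGLL to PNPLA2 varied least, between 0.259 and 0.397 over the 6 pigs.

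Beside the members, the levels of adipocyte markers were measured in the same pigs. ADIPOQ (adiponectin), PLIN1, FABP4 (fatty acid binding protein of adipocytes), LEP (leptin), CIDEC and THRSP passed as higher in S-H with log2 fold changes between 1.33 and 2.56, PLIN4 and CFD had 0.56 and 0.26 and did not pass, and CIDEA was not in the table. The median log2 fold change of the 8 tested markers was 1.84. Their mean log2 level was 6.20, 5.09 and 4.78 in S-H and 4.14, 4.01 and 3.26 in S-L. LW63, the pig with the most adipocyte marker RNA, was also the highest pig for 6 members. Whether the 2 are linked was not tested, and the share of all tested genes highest in LW63 was not counted. The median-ratio size factor of LW63, 1.13, was above those of all other pigs but LW119 (1.15).

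The members were then set against this marker level in each pig. The marker mean itself differed by 1.56 between the groups, and 6 of its 8 markers had passed as higher in these same pigs. Any member with a log2 fold change below 1.56, as all had, was therefore bound to give a negative difference of the means. The member minus the marker mean, in log2 units, was lower in all 3 S-H pigs than in all 3 S-L pigs for PNPLA2 (difference of the means -1.28), MGLL (-1.19), LIPE (-0.78) and PDE3B (-0.73). Each gave p = 0.10 in the exact two-sided permutation test, the smallest it allows, before any adjustment for the 8 members compared, so none was past 0.05. ABHD5 and G0S2 differed by -1.24 and -1.02 with overlapping groups. PNPLA3 and ADRB1 differed by -0.09 and -0.15 and overlapped (exact permutation test, p = 0.80 and p = 0.60). LIPE, MGLL and PDE3B were thus higher in S-H in FPKM and lower relative to the adipocyte markers, without overlap in either comparison. The negative differences of the means were fixed by the choice of markers. In FPKM, 13.1% of all tested genes were likewise higher in S-H without overlap. Fewer members were without overlap with median-ratio size factors or after quantile normalization.

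**Figure D4:**
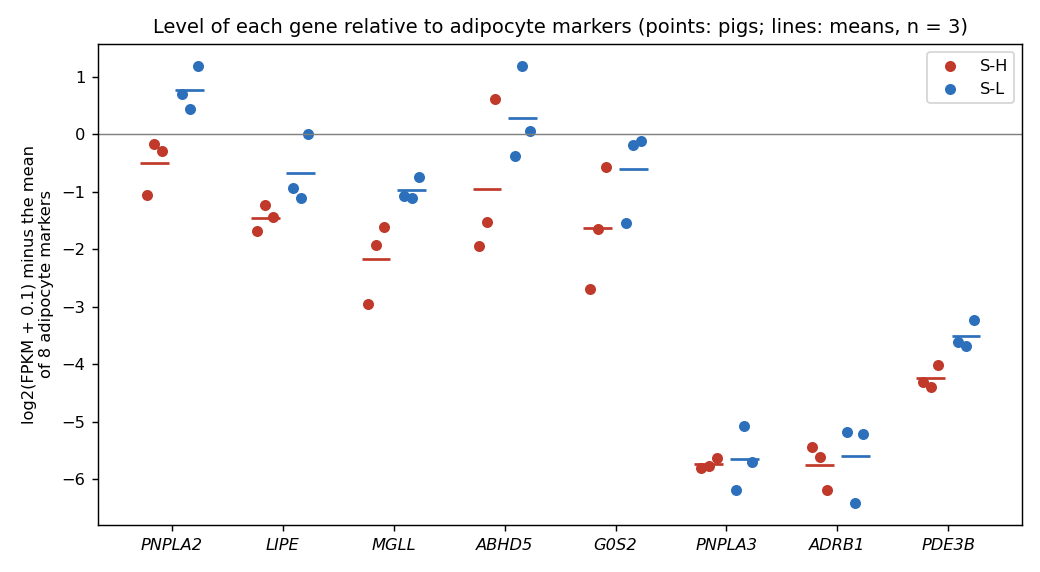
Level of each of the 8 tested genes minus the mean level of 8 adipocyte markers in the same pig (log2 units; points are pigs, bars are group means). The S-H pigs lie below the S-L pigs without overlap for PNPLA2, LIPE, MGLL and PDE3B.

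Around these 9 genes, 62 of 69 further genes of the pathway were tested, and 4 passed as higher in S-H and 0 as lower, beside 1.17% and 0.188% of all tested genes. The median log2 fold change of the 62 was 0.21, the same to 2 decimals as that of all tested genes. Without LW90 the count was 2, and without LW119 or LW82 it was 6. Of all tested genes, 86 passed without LW90, 225 without LW119 and 261 without LW82, against 173 with all pigs. In the list of other receptors, 1 of 10 tested genes passed. This was HCAR1, the lactate receptor that restrains lipolysis in adipocytes, at 3.96, 1.81 and 1.96 FPKM in S-H and 0.532, 0.383 and 0.195 FPKM in S-L. Each S-H pig had more than 3 times the level of the highest S-L pig, and the log2 fold change was 2.49 (SE 0.41, limma, p = 0.000127, adjusted p = 0.1799, exact two-sided permutation p = 0.10). The second in size was PTGER3, a prostaglandin receptor, with 0.92.

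In the list of G proteins, adenylyl cyclases, PKA subunits and other phosphodiesterases, 0 of 23 tested genes passed and the median was 0.06. The 2 largest log2 fold changes in size were those of PRKAR2B, the PKA regulatory subunit typical of fat, with 1.33 (SE 0.49, limma, adjusted p = 0.580), and ADCY1, an adenylyl cyclase, with -0.99 (SE 0.44, limma, adjusted p = 0.608). PRKAR2B measured 22.8, 6.66 and 6.55 FPKM in S-H and 5.64, 4.44 and 2.38 FPKM in S-L, so LW63 again stood apart. In the insulin list, 0 of 11 genes passed and the median was 0.05. PIK3R3, a regulatory subunit of PI3-kinase, and AKT2, the kinase downstream of it, had log2 fold changes of -0.73 and 0.63.

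In the list of droplet coat and fatty acid export proteins, 3 of 8 tested genes passed, all of them also adipocyte markers. These were PLIN1 with a log2 fold change of 2.04, CIDEC, which enlarges droplets, with 2.02, and FABP4 with 1.33 (limma, adjusted p of 0.464, 0.515 and 0.540). In the list of other lipases, 0 of 10 passed, all 10 had a log2 fold change above 0 and the median was 0.35. CES1, a carboxylesterase, had 2.28 (SE 0.82, limma, adjusted p = 0.580) but ranged from 0.232 to 2.83 FPKM in S-H, and ABHD6, which also cleaves monoglyceride, had 1.11 (SE 0.48, limma, adjusted p = 0.608).

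**Figure D5:**
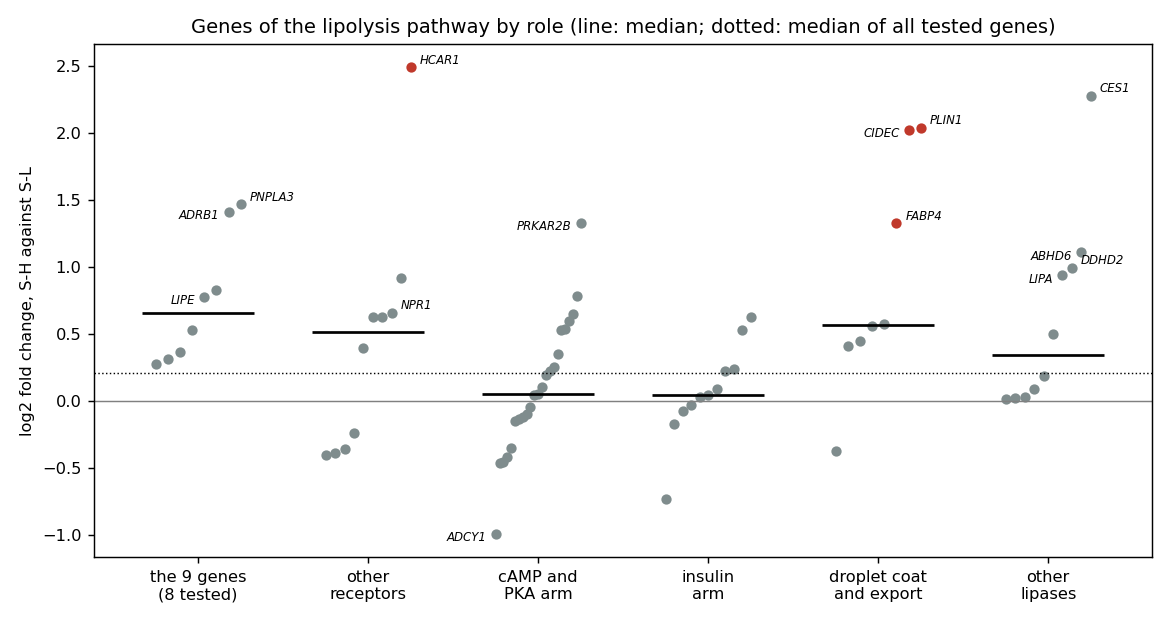
Log2 fold change, S-H against S-L, of the tested genes of the 9 members and of 5 lists of further pathway genes (points; red where both thresholds were passed; horizontal bars are list medians; the dotted line is the median of all tested genes, 0.21). Names are given for genes with an unadjusted p below 0.05, and the 4 red points are HCAR1, PLIN1, CIDEC and FABP4.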

How the data were processed

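The authors depleted total RNA of the LD muscle of 6 pigs of ribosomal RNA, made strand-specific libraries, used HISAT2 for alignment to Sus scrofa 11.1, and obtained transcripts and their levels with StringTie. The deposited table holds FPKM for 83119 transcripts, computed by the authors, but 21104 Ensembl transcripts lacking a symbol were deposited as TPM, as their values showed. The latter were multiplied by 1 factor per pig, computed from the table alone. No scaling between libraries was added. Read counts were not used here, so counting error is unknown and edgeR, the study's test, could not be run.

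Gene levels were sums over all rows of a gene ID, and ADRB3 was found by ID. Of 31908 genes, 17084 were protein-coding by RefSeq (symbol for 13901 matches, reciprocal overlap of at least 50% for 4666). The 12740 with a mean of at least 0.1 FPKM entered limma 3.58.1 (R 4.3.3, variance trend) as log2(FPKM + 0.1), as did 40336 transcripts. Passing required p below 0.01 before adjustment and a log2 fold change of 1 or more in either direction. Adjusted p values are Benjamini-Hochberg values over all tested features. Exact two-sided permutation tests compared single values in Python 3.11.15 with scipy 1.17.1. On simulated data with 200 genes changed by 2 on the log2 scale the fit recovered 177 (88.5%) and 0.662% of unchanged genes passed. Of 200 changed transcripts it recovered 115 (57.5%).

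The members and lists were chosen with earlier results of these data known. Genes named were the members, pathway genes that passed, the 2 largest changes in each list, adipocyte markers and the 3 closest profiles of a member. 1 gene of the receptor list is not reported here by name. Alternatives were other pseudocounts, filters, scalings, variance models, gene values, call rules and marker levels, and each pig left out. The Ensembl-only sum and the ratio to PNPLA2 were added after seeing the data. Other transcript classes were not analysed here.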

Additional observations from a re-analysis of the deposited data

How the results depend on the processing

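No paired analysis was possible because the 2 groups are different animals whose labels share no numbers. Depth is unknown, 3 pigs against 3 cannot give an exact p below 0.10, and no protein-level or activity value was used here. Of the single-gene and single-transcript values, 610 kept their direction and side of the thresholds under the alternatives, 21 lost a pass, 12 gained one and 16 changed sign. Of the counts, 56 stayed within 1.5 times and 10 moved. The count of members that passed, 0, was 1 (PNPLA3) on TPM and 1 (PNPLA3) in limma without a trend, and ranged from 0 to 3 with single pigs left out. It was 3 (LIPE, PNPLA3 and ADRB1) without LW119. The count of pathway genes that passed, 4, was 8 on TPM and 0 at an adjusted p below 0.05 in limma, where 11 had an unadjusted p below 0.05. It ranged from 2 to 6 with single pigs left out and was 2 without LW90. Over all tested genes the count was 173, with 260 on TPM and 86 to 261 with single pigs left out. HCAR1 passed under all 19 alternatives with the same thresholds (adjusted p 0.0696 to 0.531). The count of members without overlap, 4, was 2 with median-ratio size factors, 1 after quantile normalization and 1 as the ratio to PNPLA2. The cause of these moves was not tested. With single pigs left out, log2 fold changes ranged from -0.18 to 0.87 for ABHD5, -0.0068 to 0.50 for CFD, -0.13 to 0.42 for LIPE-203, -0.10 to 0.38 for MGLL-202 and -0.49 to 0.73 for ABHD5-202. Median-ratio size factors gave -0.018 for MGLL-202 and -0.047 for ABHD5-202, and quantile normalization gave -0.031 for LIPE-203, -0.032 for MGLL-202 and -0.022 for ABHD5-202. The transcript with the highest mean gave 0.63 for PIK3R3.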

Other observations

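The genes with the level profiles closest to 4 members over the 6 pigs were found among 9893 genes by the root mean square difference of centred log2 levels. For LIPE they were RNF152 (0.0884), PLPP7 (0.134) and FAM160B1 (0.139). For PDE3B they were ENSSSCG00000006324 (0.0907), HSD17B4 (0.116) and PDE1A (0.124), another phosphodiesterase. For ABHD5 they were ENSSSCG00000038506 (0.107), CRABP2 (0.125) and LOXL1 (0.148), and for G0S2 they were ENSSSCG00000006395 (0.0749), TPM4 (0.0961) and IFNGR2 (0.128). With 6 pigs and this many genes, such closeness is a description of these libraries.

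By their medians, the tested markers of other cell types moved less than those of adipocytes. None of the 5 tested markers of myofibres passed (median log2 fold change 0.34), none of the 5 of fibroblasts (0.43), none of the 6 of macrophages (0.28) and none of the 3 of blood (0.69). Of the 5 myofibre markers, 4 lay above 0 and TNNT3 below it (-0.51). ACTA1 was not among the tested genes, because the matching to RefSeq did not class it as protein-coding, although its level was far above the minimum. Its mean was 654.6 FPKM in S-H and 1285 FPKM in S-L, with overlapping groups. Of the 5 endothelial markers 1 passed, CLDN5, a tight junction protein, with a log2 fold change of 1.87, and the median was 0.06.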
